A study of Mus musculus with 6 samples.

Results

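The Zfp genes are the mouse genes whose symbols are Zfp followed by a number, a naming group of zinc finger proteins. They were followed here in 6 subcutaneous tumours of LG1233-OVA, a murine lung cancer line that by its name carries the model antigen ovalbumin. In the annotation used, GENCODE M21, 365 protein-coding genes carry such a symbol. Of these, 152 were the only gene whose exons lie under at least 1 counted row of the deposited tables, with at least 50 bp of exon covered. After a minimum of 60 counts summed over the 6 tumours, 118 genes remained as members, each read from its most counted row out of 53599 rows. All counts of that row were credited to the member, also any from parts of the row outside exons. Zfp36, an RNA-binding protein of another zinc finger type, was left out. Renaming by position was needed because the row names follow the GRCm39 build while the reads lie on GRCm38. The row of a member carried the gene's own name in 18 cases and another name in 100. Just under the minimum stood Zfp446, Zfp810 and Zfp418 with 57, 56 and 48 counts, and just over it Zfp667, Zfp266 and Zfp853 with 60, 62 and 66. A further 213 Zfp genes had no row of their own and were not analysed as single genes. Rows that cover a Zfp gene together with another gene are described at the end.

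Both groups of tumours grew from stable CRISPR/Cas9 lines given to female C57BL/6 mice as subcutaneous injections of 1000000 cells, and were taken on day 27. The control group received a non-targeting guide (sgNT, genotype given as WT, n = 3). The other received a guide against Uhrf1 (sgUhrf1, genotype given as Uhrf1 knockout, n = 3). Uhrf1 encodes a chromatin protein known for the maintenance of DNA methylation. The labels number the tumours as biological replicates and do not say whether a line is 1 clone, where the guide cuts, or how old the mice were. Host cells in either group keep an intact Uhrf1 gene. The most counted Uhrf1 row, 690 bp of exon, held 133, 136 and 98.2 CPM (counts per 1000000 after TMM scaling, which evens out library composition) in sgNT and 121, 73.0 and 89.9 CPM in sgUhrf1. The groups overlapped, with a log2 difference of -0.37 ± 0.23 (SE) and an edgeR adjusted p of 0.227. A second Uhrf1 row, 238 bp of exon, held 12, 19.7 and 9.04 CPM in sgNT and 6.90, 4.60 and 7.92 CPM in sgUhrf1. It was lower without overlap but did not pass (-1.08 ± 0.39 SE, edgeR adjusted p = 0.0524). Where the guide cuts relative to these rows is not known, and an edited gene can still be transcribed, so neither row settles the knockout label.

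C2H2 zinc finger proteins bind DNA through strings of short finger modules, each held together by a zinc ion, and the string of fingers sets which sequence is bound. Many of them begin with a KRAB domain, which recruits the co-repressor TRIM28 (KAP1). TRIM28 in turn brings the histone methyltransferase SETDB1 and HP1 proteins, and the KRAB family is best known for holding transposable elements and imprinted regions in a repressed, methylated state. KRAB zinc finger genes have multiplied by tandem duplication and stand in clusters. Zfp genes without a KRAB domain are a mixed group, with roles in transcription, ubiquitin transfer and ribosome assembly.

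Each protein was read from the longest M21 coding transcript. A KRAB A box was called where a window matched at least 6 of 8 fixed positions, and 72 of the 118 members had one. Among all Zfp genes it was 212 of 365, and among the other protein-coding genes 0.662% of 21586. A missing match does not show that a protein lacks the domain. The members held a median of 11 C2H2 fingers, from 0 in Zfp330 and Zfp839 to 33 in Zfp462, and the median was 13 with a KRAB A box and 8 without. In all, 68 members lay in 20 genomic clusters, runs of at least 4 Zfp genes with starts under 500 kb apart. Members with a KRAB A box lay in clusters in 57 of 72 cases, and those without in 11 of 46.

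The promoters of 2 neighbouring pairs are shown because their members gave the largest called fall, another large fall and the largest called rise of all members. Zfp345 and Zfp937 lie in a cluster on chromosome 2, and Zfp773 and Zfp772 in a cluster on chromosome 7. The sequences are the 250 bases before the RefSeq start (GRCm38.p6), written 5′ to 3′ on the gene's strand, with CpG sites, the sequence that UHRF1 reads in its hemimethylated form, in capitals. Their positions are chr2:150485064-150485313 (minus strand, Zfp345), chr2:150217849-150218098 (plus strand, Zfp937), chr7:7136756-7137005 (minus strand, Zfp773) and chr7:7209999-7210248 (minus strand, Zfp772).
Zfp345: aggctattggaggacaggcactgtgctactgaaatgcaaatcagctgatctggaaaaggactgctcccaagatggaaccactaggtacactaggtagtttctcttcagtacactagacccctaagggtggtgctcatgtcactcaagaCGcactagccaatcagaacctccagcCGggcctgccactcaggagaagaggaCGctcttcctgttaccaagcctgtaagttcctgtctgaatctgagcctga
Zfp937: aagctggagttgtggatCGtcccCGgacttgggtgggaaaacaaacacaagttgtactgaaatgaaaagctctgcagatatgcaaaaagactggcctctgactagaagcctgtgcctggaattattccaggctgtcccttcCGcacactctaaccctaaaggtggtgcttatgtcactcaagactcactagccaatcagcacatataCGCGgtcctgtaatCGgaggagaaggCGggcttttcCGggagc
Zfp773: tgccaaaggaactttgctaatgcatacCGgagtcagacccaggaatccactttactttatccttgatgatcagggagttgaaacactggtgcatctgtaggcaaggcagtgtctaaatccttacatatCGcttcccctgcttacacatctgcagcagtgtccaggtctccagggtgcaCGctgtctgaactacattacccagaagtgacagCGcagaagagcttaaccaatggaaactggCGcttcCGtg
Zfp772: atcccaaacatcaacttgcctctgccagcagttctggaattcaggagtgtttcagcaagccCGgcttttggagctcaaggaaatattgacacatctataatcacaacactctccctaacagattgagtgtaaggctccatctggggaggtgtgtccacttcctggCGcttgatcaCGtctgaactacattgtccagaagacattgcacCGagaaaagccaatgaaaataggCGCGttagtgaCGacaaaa
The 4 windows hold 3, 8, 6 and 7 CpG sites, at a G and C content of 51.2%, 50.4%, 49.2% and 46.8%. The longest run of letters shared by Zfp345 and Zfp937 was 14 bases (atgtcactcaagac), and Zfp773 and Zfp772 likewise shared 14 (gtctgaactacatt), while pairs across the chromosomes shared 7 to 9. All 4 windows contain CCAAT on at least 1 strand. So did 47.1% of the 104 members with a RefSeq promoter entry, against 33.8% of 32851 promoter windows of this length. The members have 1 window each, while the 32851 are all entries and not 1 per protein-coding gene, so the sets are unlike. No methylation was measured in these tables, so the letters describe the windows only.

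Across the members, calls in sgUhrf1 tumours were mostly falls. Of 116 members tested, 21 fell (18.1%) and 6 rose (5.17%), while 89 did not pass the threshold, an edgeR adjusted p of 0.05 over all rows. Over the 10503 rows tested, 39.9% were called, 19.7% as lower and 20.2% as higher. Among the 4241 protein-coding genes named by position with the same count minimum, 22.6% were lower and 20.2% higher. The share of members that fell thus lay slightly under the background, and the share that rose lay well under it. The low share of rises stood in the rows that carry another gene's name, of which 2 of 99 rose (2.02%) and 17.2% fell. Of the 17 tested members whose row kept its own name, 4 rose (23.5%) and 4 fell (23.5%). Among the protein-coding genes the rises were 18.5% of 607 rows with their own name and 20.5% of 3634 with another. The members with their own name had more exon covered, a median of 3006 against 730 bp, and the part of naming in the counts was not tested. The members' median log2 difference was -0.16 (interquartile range -0.66 to 0.30). In all, 72 lay below 0 (62.1%, against 49.2% of all rows and 51.3% of the protein-coding genes). The same median was 0.02 over all rows (-0.71 to 0.73) and -0.04 over the protein-coding genes (-0.79 to 0.68). These RNA levels are of whole tumours, so fewer cells of a type and less RNA per cell cannot be told apart.

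Rises were a smaller share of the members than of other genes at each level of counts. Among the 39 members with the fewest counts (66 to 243), 5.13% rose and 7.69% fell, against 15.4% and 13.6% of 934 protein-coding genes in that range. Among the middle 38 (249 to 701), 2.63% rose and 28.9% fell, against 19.7% and 27.5% of 1049 genes. Among the top 39 (703 to 9249), 7.69% rose and 17.9% fell, against 22.3% and 25.2% of 1974 genes. The middle range had the lowest median, -0.31. Counted without a test, 31 tested members were lower in every sgUhrf1 tumour than in any sgNT tumour (26.7%, against 27.8% of all rows) and 13 were higher in the same sense (11.2%, against 26.6%). These shares describe the members, and whether they differ from the background was not tested.

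**Figure D1:**
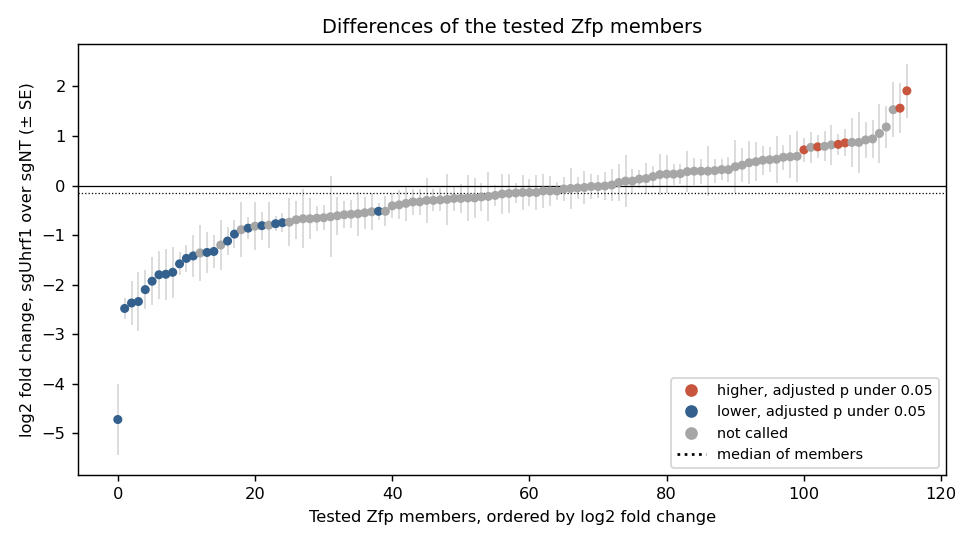
Log2 difference between sgUhrf1 and sgNT tumours (vertical axis) for each of the 116 tested members, ordered from lowest to highest, with SE bars; colours mark members that fell, rose or did not pass. The 21 members that fell reach down to -4.72 and the 6 that rose reach 1.91.

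Single tumours moved these counts. The number of rises was 0 without sgNT replicate 2, 2 without sgNT replicate 3, 3 without sgUhrf1 replicate 2 and 3 without sgUhrf1 replicate 3. Falls numbered 11 without sgNT replicate 2. Over all rows the share higher in those 4 fits was 12.8%, 14.5%, 18.4% and 17.4%, and the share lower without sgNT replicate 2 was 11.3%, so calls became fewer outside the family too. Skeletal muscle markers, 10 of 21 with a row, summed to 796 CPM in sgNT replicate 2 and 645 in sgUhrf1 replicate 1, against 77.6 to 112 in the other 4 tumours. Much of the sum in the other 4 was Eno3, at 37.9 to 93.6 CPM. Ckm stood at 243 and 186 CPM in the 2 muscle-rich tumours and at 0.177 to 18 in the others. No marker with a row, of this list or the lists below, was at 0 in all tumours. The defining markers without a row were not analysed here. Without both of the muscle-rich tumours, 0 members rose and 6 fell in edgeR, where 10.2% of all rows were higher and 7.21% lower. At an unadjusted p under 0.05 there were 4 rises without sgNT replicate 2, and 5 rises and 18 falls without both. With all tumours, DESeq2 gave 8 rises and limma-voom 7. Of the 27 called members, 10 stayed called whichever single tumour was left out, and all 10 were falls: Zfp345, Zfp462, Zfp609, Zfp2, Zfp937, Zfp651, Zfp277, Zfp868, Zfp292 and Zfp275. The 6 that fell without both muscle-rich tumours were Zfp2, Zfp345, Zfp462, Zfp609 and Zfp651 of these, and Zfp608.

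Some marker lists moved with the groups. T cell markers, 6 of 12 with a row, summed to 7.26 to 25 CPM in sgNT and 83.3 to 215 CPM in sgUhrf1. Epithelial markers, which a lung cancer line can carry itself, had 3 of 7 with a row and summed to 155 to 436 CPM in sgNT and 1681 to 2811 CPM in sgUhrf1. The other lists overlapped between groups, macrophage markers (4 of 9) at 488 to 777 and 277 to 942 CPM, fibroblast markers (5 of 8) at 5502 to 9168 and 5317 to 15260, and endothelial markers (4 of 6) at 35.3 to 81.9 and 44.6 to 90.4. The fibroblast sum is nearly all Col1a2 (5431 to 9088 CPM in sgNT). Within that list Pdgfra was called lower (-1.73, edgeR adjusted p = 0.0211) and Pdgfrb was lower without overlap and without a call (-1.41, adjusted p = 0.0551). Mcm2, a replication helicase subunit and the single division gene of 6 with a row, was lower at 3.33 to 5.72 CPM against 12.9 to 16 (log2 difference -1.60, called). The part of these differences in the values of the Zfp members was not tested.

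Summed over the tested members, the 3 sgNT tumours held 3134, 2922 and 3012 CPM and the 3 sgUhrf1 tumours 2532, 2679 and 2545 CPM. The groups did not overlap. Without Zfp462, the member that lost the most CPM, the sums were still apart, at 2758 to 2953 against 2493 to 2647. The median deviation of the members from their own means over the tumours was 0.14, 0.07 and 0.00 (log2) in sgNT. In sgUhrf1 it was -0.07, 0.02 and -0.15, so the groups overlapped on this measure. For the protein-coding genes it was 0.05, 0.03 and 0.02 in sgNT and -0.01, -0.04 and -0.02 in sgUhrf1. Most members had their lowest value in sgUhrf1 replicate 3 (41 of 116, or 35.3%) or sgNT replicate 3 (28). Of the protein-coding genes, 27.6% were lowest in sgUhrf1 replicate 3, the tumour with the lowest scaling factor, 0.813.

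**Figure D2:**
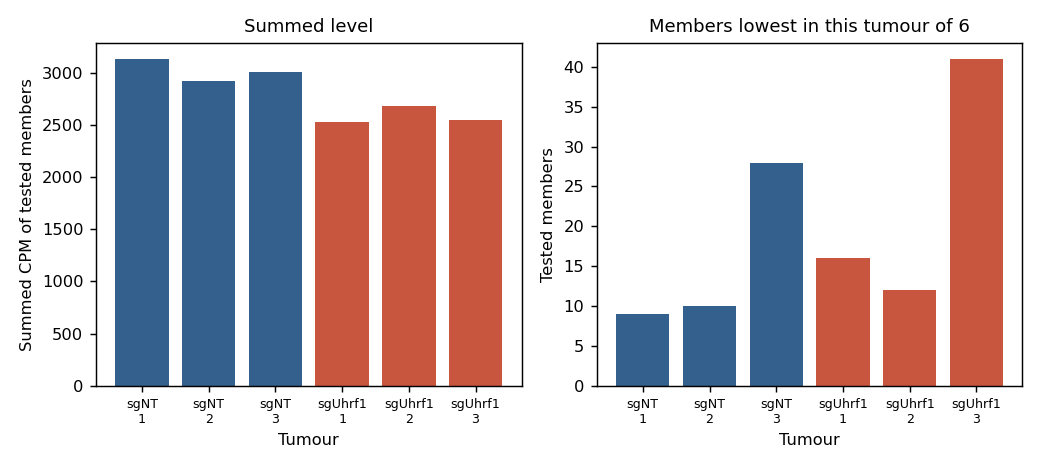
Left, summed CPM of the tested members in each tumour; right, the number of tested members that had their lowest value of the 6 in that tumour. The sums lie at 2922 or above in sgNT and at 2679 or below in sgUhrf1, and sgUhrf1 replicate 3 holds the lowest value of 41 members.

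Among members with a KRAB A box, 8 of 70 tested fell (11.4%) and 4 rose (5.71%), with a median log2 difference of -0.14. Among the protein-coding genes with the same count minimum, 22.6% were lower and 20.2% higher. The largest fall of all was that of Zfp345 (chromosome 2, 150470991 to 150485091), a KRAB protein with 14 fingers. It held 3.96, 4.30 and 2.84 CPM in sgNT and 0.177, 0.159 and 0 CPM in sgUhrf1. Behind these stood 25, 29 and 16 counts against 1, 1 and 0, so the gene lay under the floor of 3 counts (0.476 to 0.660 CPM there) in each sgUhrf1 tumour and its level was not resolved. The ratio of scaled counts was 30.9-fold lower, with an exact 95% interval for counting error of 8.23 to 260. The fitted log2 difference was -4.72 ± 0.72 (SE, edgeR adjusted p = 0.00134), a size that depends on the prior count. Only 148 of its 2734 bp of exon lie in the row, and 29.8% of the 50-base stretches in its transcript also occur in another gene, so reads of close copies may be among those counted.

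Zfp937 (chromosome 2, 150218073 to 150240725), its neighbour with 14 fingers, fell as well. It held 13.8, 12.7 and 9.75 CPM in sgNT and 3.36, 1.27 and 5.06 CPM in sgUhrf1, with no overlap. The log2 difference was -1.93 ± 0.48 (SE, edgeR adjusted p = 0.0121), and was not called without both muscle-rich tumours (adjusted p = 0.0887). It shares 29.4% of its 50-base stretches with another gene, most of them with Zfp442.

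Zfp568 (chromosome 7, 29983955 to 30028282) encodes a KRAB protein known for repressing a placental transcript of Igf2. Its 3 sgNT tumours held 2.69, 5.93 and 5.32 CPM and its sgUhrf1 tumours 0.354, 1.43 and 0.880 CPM. The value of sgUhrf1 replicate 1 lies under the floor of 3 counts. The log2 difference was -2.34 ± 0.60 (SE, edgeR adjusted p = 0.0140), and it was not called without sgNT replicate 2, without sgNT replicate 3 or without both muscle-rich tumours, with adjusted p up to 0.142.

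Zfp65 (chromosome 13, 67705309 to 67729173) and Zfp60 (chromosome 7, 27731389 to 27753702) are KRAB proteins with 9 and 19 fingers. Zfp65 stood at 9.18, 13.2 and 10.1 CPM in sgNT and at 4.07, 3.97 and 1.10 CPM in sgUhrf1. Zfp60 stood at 26.1, 20.3 and 19.7 CPM and at 8.85, 8.41 and 1.54 CPM. For both, sgUhrf1 replicate 3 was the lowest tumour and the groups did not overlap. The log2 differences were -1.80 ± 0.48 and -1.79 ± 0.51 (SE), with edgeR adjusted p of 0.0159 and 0.0210. Zfp65 was not called without sgNT replicate 2, Zfp60 not without sgNT replicate 1, and neither without both muscle-rich tumours (adjusted p up to 0.0905 and 0.0601). The other KRAB members that fell were Zfp868, Zfp110 (NRIF, an interactor of the p75 neurotrophin receptor) and Zfp53, with log2 differences of -1.33, -1.12 and -0.52. Zfp110 was not called without sgNT replicate 2 or 3, and Zfp53 lost its call when any 1 tumour other than sgUhrf1 replicate 3 was left out. None of the 3 was called without both muscle-rich tumours.

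**Figure D3:**
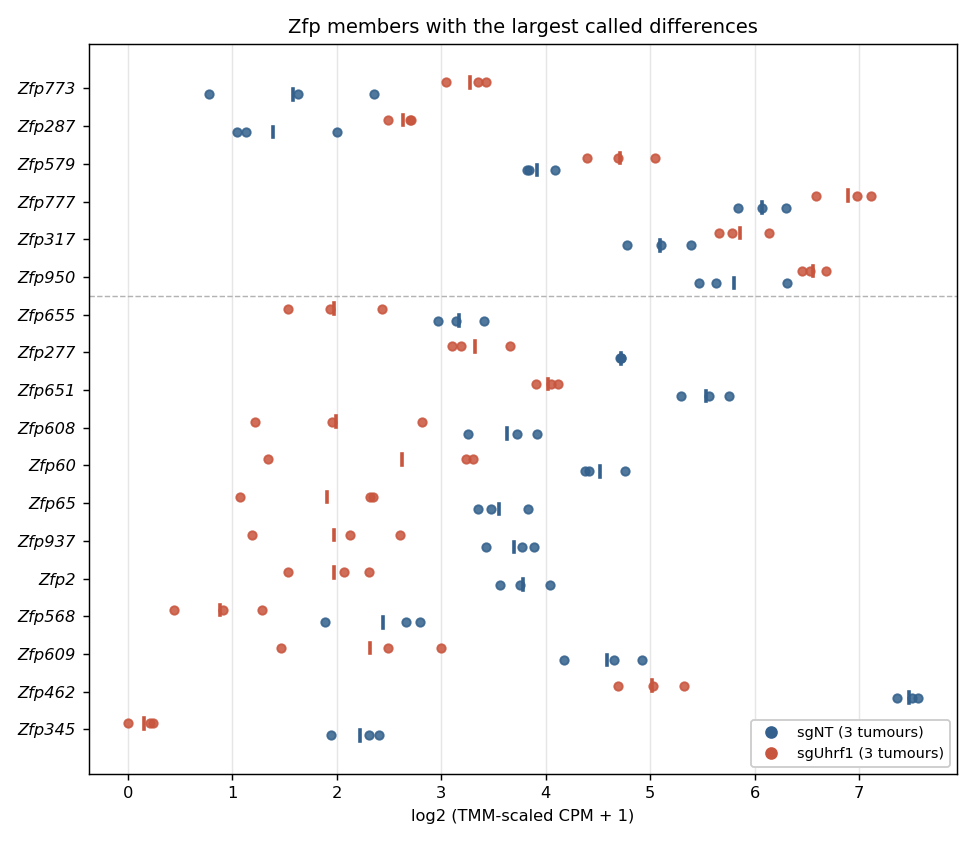
TMM-scaled CPM of the called members with the largest differences in each tumour, on a log2 (CPM + 1) axis; points are the 3 tumours of a group and ticks the means of their log values. For Zfp462 all sgNT points lie at 164 CPM or above and all sgUhrf1 points at 39.1 or below, while Zfp345 is near 0 in each sgUhrf1 tumour.

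Among members without a KRAB A box, 13 of 46 fell (28.3%) and 2 rose (4.35%), with a median log2 difference of -0.27. These shares stand beside 22.6% lower and 20.2% higher among the protein-coding genes. The difference between the 2 kinds of member was not tested. Members with a KRAB A box more often had few counts. A filter of at least 30 counts in 3 tumours kept 51 of 70 with the box and 40 of 46 without, of which 6 and 13 fell. Falls were also rarer among protein-coding genes in the lowest count range, at 13.6% against 27.5% and 25.2% in the 2 higher ranges. The clearest of them was Zfp462 (chromosome 4, 54945048 to 55083563), the protein with the most fingers, known from neural development and from histone H3 lysine 9 methylation in embryonic stem cells. Its row covers all 10702 bp of its exons. Zfp462 held 181, 164 and 188 CPM in sgNT and 39.1, 31.6 and 24.8 CPM in sgUhrf1, means of 178 ± 12.3 and 31.9 ± 7.14 CPM (SD, n = 3). No other member lost as many CPM. The log2 difference was -2.48 ± 0.21 (SE, edgeR adjusted p = 0.000136), and it stayed between -2.71 and -2.33 in the 16 alternatives run.

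Zfp609 (chromosome 9, 65692391 to 65827564), a partner of the cohesin loader NIPBL and the Integrator complex in neural progenitors, held 17.1, 24.2 and 29.2 CPM in sgNT and 4.60, 6.98 and 1.76 CPM in sgUhrf1. Its close relative Zfp608 (chromosome 18, 54888048 to 54992555) held 8.55, 14.1 and 12.2 CPM and 6.02, 2.86 and 1.32 CPM. Both were lower in all 3 sgUhrf1 tumours than in any sgNT tumour. The log2 differences were -2.37 ± 0.45 and -1.75 ± 0.51 (SE), with edgeR adjusted p of 0.00384 and 0.0236. Zfp608 lost its call (adjusted p up to 0.0812) when replicate 2 or 3 of sgNT or replicate 2 of sgUhrf1 was left out, and its row covers 249 of 8513 bp.

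Zfp2 (chromosome 11, 50898712 to 50916165), with 13 fingers, held 10.8, 12.5 and 15.4 CPM in sgNT and 3.19, 1.90 and 3.96 CPM in sgUhrf1. Zfp651 (chromosome 9, 121759330 to 121771742), with 7 fingers, held 38.2, 53.1 and 46.1 CPM and 14, 16.3 and 15.6 CPM. In both, the sgUhrf1 tumours lay well under the controls, and those of Zfp651 lay close together. The log2 differences were -2.10 ± 0.39 and -1.58 ± 0.23 (SE), with edgeR adjusted p of 0.00324 and 0.00103. Each kept its call in all 16 alternatives.

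Zfp277 (chromosome 12, 40315046 to 40445902), a zinc finger partner of Polycomb proteins at the Ink4a locus, held 25.3, 25.2 and 25.3 CPM in sgNT and 7.61, 11.6 and 8.14 CPM in sgUhrf1. Its control tumours were almost equal. The log2 difference was -1.47 ± 0.27 (SE, edgeR adjusted p = 0.00324), with 0.0558 without both muscle-rich tumours. Zfp655 (chromosome 5, 145231715 to 145247302), a partner of the signalling protein VAV1, held 6.81, 9.64 and 7.80 CPM and 2.83, 1.90 and 4.40 CPM, with no overlap. Its log2 difference was -1.42 ± 0.43 (SE, edgeR adjusted p = 0.0266), on a row of 104 bp. Zfp655 was not called without sgNT replicate 2 or 3, sgUhrf1 replicate 1 or 2, or both muscle-rich tumours (adjusted p up to 0.212).

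Zfp292 (chromosome 4, 34803113 to 34882960), a large protein known from neurodevelopmental disorders, fell by less and from a high level. Its row covers all 9986 bp of exon. It held 189, 177 and 179 CPM in sgNT and 104, 111 and 104 CPM in sgUhrf1, so spread within a group was small beside the gap. The log2 difference was -0.77 ± 0.15 (SE, edgeR adjusted p = 0.00442), with 0.0706 without both muscle-rich tumours. Zfp91, a ubiquitin ligase of noncanonical NF-κB signalling, held 35.3, 39.9 and 36.2 CPM and 23.4, 20.5 and 17.6 CPM. Its log2 difference was -0.86 ± 0.22 (SE, edgeR adjusted p = 0.0133), on 155 of 10046 bp, and it was not called without sgNT replicate 2 or without both muscle-rich tumours (adjusted p up to 0.108).

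The remaining 4 that fell were Zfp41, Zfp263, Zfp64 and Zfp275, at log2 differences of -1.35, -0.98, -0.81 and -0.75. Zfp41 was the only called member whose groups overlapped. Its lowest sgNT value, 9.03 CPM, lay under the highest sgUhrf1 value, 9.05 CPM, and it lost its call when any 1 tumour other than sgNT replicate 1 or sgUhrf1 replicate 2 was left out. Zfp64 was the least stable, losing its call when any 1 tumour other than sgNT replicate 1 was left out, and also in limma-voom. For Zfp263 the fall stood in 1 row only. Its 3 other rows with at least 60 counts gave -0.06, 0.12 and 0.12, and the sum of rows gave -0.54, not called (adjusted p up to 0.0859 over the alternatives), as was also the case without sgNT replicate 2. For Zfp275 other rows were also called lower, at log2 differences of -2.96 and -1.91, and the sum of rows gave -1.31.

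The 6 members that rose were Zfp773, Zfp287, Zfp579, Zfp777, Zfp317 and Zfp950, of which all but Zfp773 and Zfp579 have a KRAB A box. Zfp773 (chromosome 7, 7127073 to 7136755), with 8 fingers, showed the largest rise. It held 4.12, 2.08 and 0.709 CPM in sgNT and 9.74, 9.21 and 7.26 CPM in sgUhrf1, a log2 difference of 1.91 ± 0.55 (SE, edgeR adjusted p = 0.0230). Zfp287 (chromosome 11, 62700356 to 62731905), with 14 fingers, held 3.01, 1.19 and 1.06 CPM and 5.49, 5.56 and 4.62 CPM, a log2 difference of 1.56 ± 0.51 (SE, edgeR adjusted p = 0.0368). Both came from low control levels, highest in sgNT replicate 1.

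The other 4 rose from higher levels and by less. Zfp777 (chromosome 6, 48024188 to 48048911) held 56.2, 66.3 and 78.0 CPM in sgNT and 95.3, 125 and 137 CPM in sgUhrf1. Zfp317 (chromosome 9, 19622102 to 19649731) held 40.9, 33.4 and 26.4 CPM and 49.6, 54.1 and 69.5 CPM. Zfp950 (chromosome 19, 61053840 to 61140840) held 78.1, 48.5 and 43.2 CPM and 91.5, 102 and 86.4 CPM. Groups did not overlap in any of them, though sgNT replicate 1 came near the sgUhrf1 values of Zfp950. Zfp579 (chromosome 7, 4983483 to 4996158), on a row of 160 bp, held 13.3, 16 and 13.1 CPM and 24.8, 32.1 and 20 CPM. The log2 differences of Zfp777, Zfp317, Zfp950 and Zfp579 were 0.83 ± 0.21, 0.78 ± 0.23, 0.72 ± 0.24 and 0.86 ± 0.27 (SE), with edgeR adjusted p of 0.0120, 0.0266, 0.0403 and 0.0308.

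None of the 6 rises was called without sgNT replicate 2, and none without both muscle-rich tumours. Without sgNT replicate 3 only Zfp777 of the 6 stayed called. Zfp773, Zfp287, Zfp579 and Zfp950 also lost the call without sgUhrf1 replicate 1 or without sgUhrf1 replicate 2, Zfp287, Zfp317 and Zfp950 without sgUhrf1 replicate 3, and Zfp579 without sgNT replicate 1. All 6 kept their direction throughout, with the highest adjusted p between 0.0587 (Zfp777) and 0.239 (Zfp287).

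Called and uncalled members often stood side by side in a cluster. In the chromosome 2 cluster (150114406 to 150485091, 4 Zfp genes), both members with a row, Zfp345 and Zfp937, fell. In the cluster on chromosome 7 from 7114690 to 7209998, Zfp773 rose while Zfp772 held 5.38, 4.30 and 6.56 CPM in sgNT and 5.13, 2.70 and 1.76 CPM in sgUhrf1 (log2 difference -0.74 ± 0.48 SE, edgeR adjusted p = 0.249). A further chromosome 7 cluster, from 27731389 to 28380253, held Zfp60, which fell, and Zfp850 and Zfp626, at 0.41 and 0.94 without a call. Around Zfp568, from 29768552 to 30169750, 6 of 7 members lay below 0, with Zfp568 the single call and a median of -0.16. Zfp382 stood at -0.58 there (edgeR adjusted p = 0.123) and Zfp82 at 0.87 (0.287). On chromosome 6, from 47819266 to 48623227, Zfp777 rose while its neighbours Zfp282, Zfp212 and Zfp398 stood at 0.52, -0.29 and -0.11 without a call.

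The largest cluster by members lies on chromosome 17, from 21008903 to 23599487, with 23 Zfp genes and 11 members. Zfp53 was its single call and the median was -0.25. On chromosome 13, from 67038596 to 67827002, the 6 members had a median of -0.52 and Zfp65 was the single call. Another chromosome 7 cluster, from 127233061 to 127885996, had 6 members at a median of 0.27 and no call, Zfp689 standing highest at 0.92 ± 0.37 and Zfp629 lowest at -0.89 ± 0.55 (SE, edgeR adjusted p of 0.0775 and 0.225). Members inside clusters fell in 8 of 66 cases tested and rose in 3, and members outside fell in 13 of 50 and rose in 3. These are 12.1% and 4.55% inside and 26% and 6% outside, against 22.6% lower and 20.2% higher among the protein-coding genes. The difference between members inside and outside was not tested. This split largely repeats that by KRAB A box, since 57 of 72 members with the box lie in clusters and 11 of 46 without it.

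**Figure D4:**
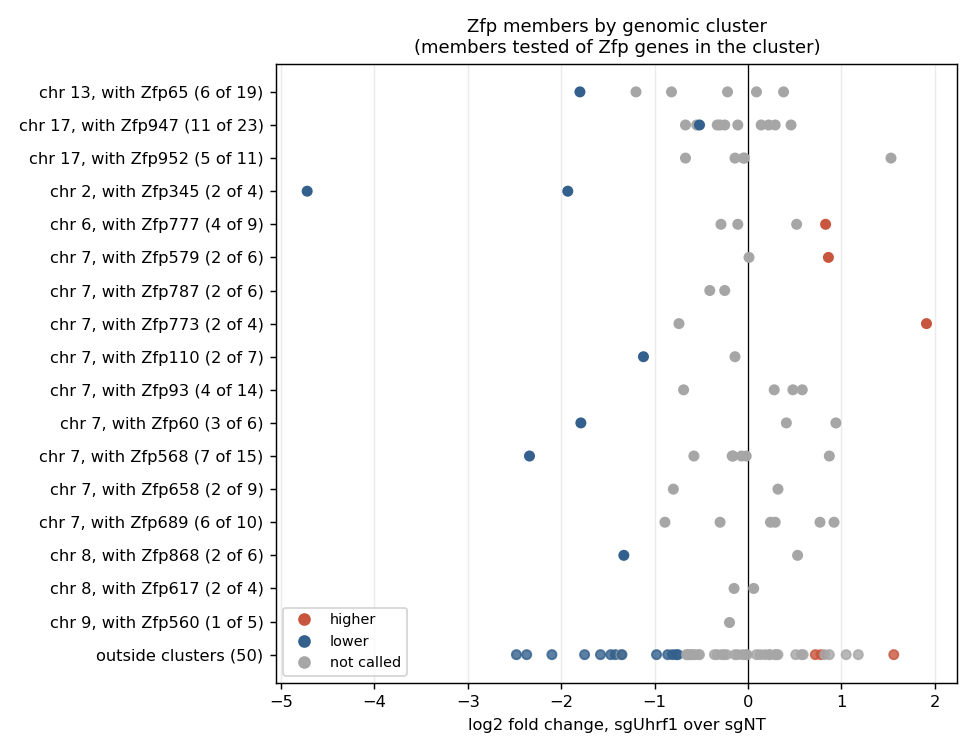
Log2 difference (sgUhrf1 minus sgNT) of each tested member, grouped by genomic cluster on the vertical axis (clusters with at least 2 members, and all members outside clusters); filled colours mark called members. Only the chromosome 2 cluster has every shown member called lower, and the clusters of Zfp773, Zfp777 and Zfp60 hold called and uncalled members side by side.

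Of 25 Zfp genes chosen for known roles, 5 were members: Zfp568, Zfp462, Zfp91, Zfp445 and Zfp622. The first 3 fell, as given above. Zfp445, which with Zfp57 protects imprints, held 42.4, 42.5 and 35.3 CPM in sgNT and 44.3, 37.9 and 19.8 CPM in sgUhrf1 (log2 difference -0.23 ± 0.29 SE, edgeR adjusted p = 0.556). Only sgUhrf1 replicate 3 lay apart from the others, and without it the difference was 0.03. Zfp622, which takes part in maturation of the large ribosomal subunit, was the most counted member. It held 193, 275 and 398 CPM and 220, 232 and 270 CPM, with the sgUhrf1 tumours inside the control range (-0.26 ± 0.25 SE, adjusted p = 0.435). Among the 5 most counted members, Zfp622, Zfp292, Zfp369, Zfp462 and Zfp777, the remaining one was Zfp369. It held 129, 99.8 and 87.9 CPM and 146, 125 and 101 CPM, without a call (0.23 ± 0.21 SE, adjusted p = 0.412).

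Per kb of covered exon, the mean level of a member over the tumours ran from 1.19 CPM in Zfp82 to 213 CPM in Zfp787, with a median of 16.6. Zfp362, Zfp777 and Zfp91 followed at 199, 192 and 186 CPM per kb. These rows cover 151, 74, 484 and 155 bp, so the order at the top rests on short stretches of exon. The counts are those of the whole row, while only its exon bases were divided by. Counts from outside exons raise such a value, so it is not a measured level of the mRNA. Over all members the row covered a median of 749 bp, or 14.9% of the gene's exon, and 15 members were covered by 50% or more. Zfp266 and Zfp667 did not pass the filter on low counts. Zfp266 stood at 1.27, 3.56 and 1.42 CPM in sgNT and 1.42, 1.75 and 0.660 CPM in sgUhrf1, and Zfp667 at 1.11, 0.445 and 0.177 CPM and 1.24, 3.02 and 5.06 CPM. Zfp667 was higher in all sgUhrf1 tumours, on 7, 3 and 1 counts against 7, 19 and 23.

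Promoter CpG content, which the rule did not use, was compared by call. In the RefSeq window from 250 bases before to 50 after the start, 104 members had a median of 13 CpG sites, against 14 in 16539 protein-coding genes, and an observed-to-expected CpG ratio of 0.638 against 0.602. The 6 members that rose had a median of 14 CpG sites (7 to 51), the 16 with an entry that fell 16 (4 to 46), and the 80 without a call 12 (1 to 35). Across members, the log2 difference had a Spearman correlation of 0.10 with the CpG count (n = 102) and 0.05 with the number of fingers (n = 116). Members share libraries, and neighbours share sequence, so these values only describe them. Besides CCAAT, 2 motifs were searched on both strands. The cyclic AMP response element, TGACGTCA, was found in the windows of 4 members (3.85%, against 2.42% of all protein-coding windows). Of these members 3 were tested, and 0 were called by edgeR, DESeq2 or limma-voom, with 2 at an unadjusted edgeR p under 0.05. The NRF1 motif was found in 5 members (4.81%, against 6.92%). Of these, Zfp2 and Zfp91 fell, Zfp658 and Zfp82 were not called, and Zfp667 was not tested. Among all tested members 18.1% fell, and among the protein-coding genes 22.6%. The members with the motif are too few to compare with these shares.

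The genes of the machinery through which KRAB zinc fingers act stood mostly below 0. Of 26 listed co-repressor symbols, of which Tasor and Fam208a name the same gene, 14 had a row and 13 were tested. In edgeR 5 fell (38.5%, against 22.6% of the protein-coding genes) and 0 rose. At an unadjusted p under 0.05, 5 were lower and 1 was higher, and DESeq2 and limma-voom each called 5 lower and 0 higher. The median log2 difference was -0.58, with 12 of 13 below 0 (92.3%, against 51.3% of the protein-coding genes). Atf7ip, the partner that stabilises SETDB1, held 40.1, 61.2 and 57.6 CPM in sgNT and 17.2, 14.1 and 8.14 CPM in sgUhrf1. The groups lay far apart, and the log2 difference of -2.0 ± 0.31 (SE, edgeR adjusted p = 0.00147) was called in all 16 alternatives.

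Cbx5, which encodes HP1α, held 66.3, 98.6 and 81.2 CPM in sgNT and 52.9, 38.9 and 42.7 CPM in sgUhrf1. Smarcad1, a chromatin remodeller that binds TRIM28, held 25.8, 32.2 and 26.9 CPM and 13.1, 18.9 and 13.9 CPM. Neither overlapped between groups, with log2 differences of -0.87 ± 0.22 and -0.89 ± 0.25 (SE, edgeR adjusted p of 0.0120 and 0.0220). Rcor1, the CoREST scaffold, and Ehmt2, a histone H3 lysine 9 methyltransferase, stood at -1.11 ± 0.34 and -0.66 ± 0.23 (SE, edgeR adjusted p of 0.0299 and 0.0429), on rows of 84 and 82 bp, and Ehmt2 overlapped between groups. Setdb1 did not pass (-0.20 ± 0.28 SE, adjusted p = 0.590), nor did Resf1, the 1 gene above 0 (0.61 ± 0.24 SE, adjusted p = 0.0681). Without sgNT replicate 2, only Atf7ip of the 5 that fell stayed called. Smarcad1, Rcor1 and Ehmt2 lost the call without sgNT replicate 3, Smarcad1 and Ehmt2 without sgUhrf1 replicate 1, Rcor1 without sgUhrf1 replicate 2, and Rcor1 and Ehmt2 without sgUhrf1 replicate 3. Trim28 lies only in a row shared with Ube2m, Mzf1 and Chmp2a, which was not called (0.38 ± 0.20 SE, adjusted p = 0.160).

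**Figure D5:**
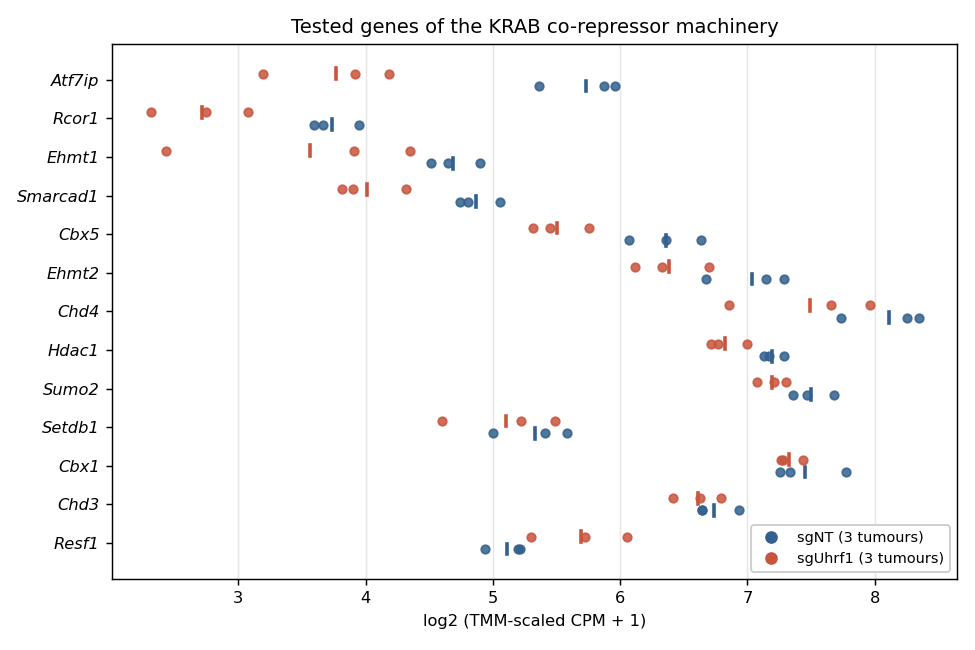
Log2 (CPM + 1) of the 13 tested co-repressor genes; points are the 3 tumours of each group and ticks the means of their log values. Atf7ip shows the widest gap, and Resf1 is the only gene whose sgUhrf1 mean lies above its sgNT mean.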

How the data were processed

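RNA of 6 tumours was measured, 3 per group. The authors deposited whole-number counts of read pairs per annotated row, a table for each tumour. The submitters' processing notes name fastp, STAR and featureCounts with build GRCm38; per the file headers, featureCounts was version 2.0.1, without strand and with GENCODE M26. Rows were renamed by the M21 exons (GRCm38) under their intervals, small RNAs ignored. This named 13437 of 53599 rows, holding 40.3% of 35176944 counts; rows over several genes stayed in the fit. Counts of antisense genes, of close copies or of sequence outside exons cannot be separated. Tumours held 5462555 to 6375069 counts over 16051 to 18771 detected rows. Replicates differed beyond sampling noise.

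All rows were tested with edgeR 4.0.16 (R 4.3.3, quasi-likelihood, TMM, filterByExpr with minimum count 10 and total 15, Benjamini-Hochberg over 10503 rows). The fit was also run on counts simulated from these rows, with the outcome not reported here. DESeq2 1.42.0, limma 3.58.1 (voom), other filters, scaling and namings, and leaving out tumours were tried. CPM are TMM-scaled; ± is SE for log2 differences and SD for means. Floors and intervals cover counting error only. P-values set the difference between groups against the spread between these tumours, which was estimated in part across rows. They do not cover differences between separately edited lines, and guide and line cannot be told apart here.

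Named were called members without overlap between groups (up to 12 each way), members among 25 genes with known roles, the 5 most counted, and up to 4 per cluster described; Zfp868, Zfp110, Zfp53, Zfp41, Zfp263, Zfp64 and Zfp275, and the members at the count minimum or with extreme values, were named after their values were seen. Protein features were planned from RefSeq proteins and were read from M21 transcripts instead. Members and lists were chosen with earlier results of these data known.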

Additional observations from a re-analysis of the deposited data

How the results depend on the processing

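The median log2 difference of the members kept its sign in every setting, from -0.23 to -0.08 when 1 tumour was left out. In those same fits the members that rose numbered 0 to 7 and those that fell 11 to 19; with a KRAB A box 0 to 6 and 4 to 8, without one 0 to 2 and 7 to 13. Co-repressor genes numbered 0 to 1 and 1 to 5, and Zkscan, Zscan and Zbtb genes 0 and 2 to 4. Calls over all rows moved too, at 12.8% to 18.4% higher and 11.3% to 17.3% lower in these fits. Without both muscle-rich tumours, 0 members rose and 6 fell, with a KRAB A box 0 and 1, and without one 0 and 5. In that fit 1 co-repressor gene and 0 genes of the other families fell. Of all rows, 10.2% were higher there and 7.21% lower. Without a KRAB A box, 1 member rose with no filter and 1 on rows of at least 200 bp, where 3 co-repressor genes fell. Values without a call that changed sign were Zfp622 (0.02 without sgNT replicate 3), and Zfp445 (0.03), Zfp398 (0.11) and Setdb1 (0.01) without sgUhrf1 replicate 3; with 1 tumour left out they reached down to -0.51, -0.47, -0.39 and -0.42. The cause was not tested. The replicate numbers did not pair the tumours: deviations of same-numbered tumours correlated at -0.0792, -0.0241 and 0.0539, and not every tumour correlated best with its own number. With the replicate number as a block, 5 members rose and 19 fell at a median of -0.18, and Zfp317, Zfp64 and Zfp53 lost the call (adjusted p 0.0557, 0.0773 and 0.0851). Fits without a tumour rest on fewer tumours, and the members' rows cover a median of only 749 bp of exon. The part of either in the lost calls was not tested.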

Other observations

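Other zinc finger families with a row of their own, Zkscan, Zscan and Zbtb, gave 12 tested genes. In edgeR 2 fell and 0 rose, with 4 lower and 0 higher at an unadjusted p under 0.05; DESeq2 called 3 lower and limma-voom 2, and both called 0 higher. The share that fell, 16.7%, lay near the background of 22.6% among protein-coding genes, of which 20.2% rose. Their median log2 difference was -0.50, with 9 of 12 below 0 (75%, against 51.3% of the protein-coding genes). Zkscan1, which joins a SCAN and a KRAB domain to its fingers, stood at -0.83 ± 0.17 (SE, edgeR adjusted p = 0.00522), and Zbtb43, of the BTB zinc finger proteins, at -0.74 ± 0.18 (SE, edgeR adjusted p = 0.00980).

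Rows that cover a Zfp gene together with another gene could not be credited to either. Of 113 such rows tested, 14 were higher (12.4%) and 12 lower (10.6%), with a median log2 difference of 0.17. Both shares lay under those of all rows, 20.2% higher and 19.7% lower. This median lies on the other side of 0 from that of the members, -0.16. Where a second row of a member passed the filter, 10 of 17 had the sign of the main row, little more than unrelated signs would give. Some members gave several of the 17 rows. Zfp81, among those that differed, stood at -0.67 on a row of 227 counts and at 0.62 on a row of 221. A single row may thus not stand for its gene.

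Several Zfp transcripts are near copies of one another, which can move reads between them. The highest share of 50-base stretches found in another gene was 82.7% in Zfp960, of which most lie in Zfp97, and 12 members shared 20% or more. Of the called members, 2 were at or over that share, Zfp345 and Zfp937.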
